A study of Mus musculus with 12 samples.

Results

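The genes described here are 43 enzymes of amino acid breakdown and closely linked steps (Glul builds glutamine), chosen by name from the 23420 genes of the count table. They cover the branched-chain amino acids (12 genes), the propionate and methylmalonate steps that follow (5), lysine (5), phenylalanine and tyrosine (5), proline and ornithine (4), glycine and the choline side chain (7), glutamate, glutamine and GABA (3) and general aldehyde dehydrogenases (2). All 43 were found in the table and all 43 passed the filter on low counts, with 11664 genes in all.

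RNA was sequenced from kidneys of male C57BL/6J mice, 8 to 15 weeks old by the study's methods. It came from 4 controls removed by nephrectomy and from 8 kidneys taken after 20 min of clamping of the renal pedicle and 24 h of reperfusion. The clamp is a tunnelled thread device placed around the pedicle under ketamine and xylazine at least a day earlier, so that the pedicle can be closed in awake mice after a brief isoflurane sedation or in mice under ketamine and xylazine. By the study's methods, the other kidney could be excised at that surgery, and buprenorphine was given after it and again before ischemia. In the comparisons with control, this surgery and drug cannot be told apart from ischemia. Titles and group field disagree for the ischemic kidneys. Set A (n = 4) is titled anaesthetised and has a group field that reads conscious, and set B (n = 4) is titled conscious and has a group field that reads anaesthesia, so that no direction is given to anaesthesia here. The labels also give the ischemia treatment for the controls. Nothing in the labels says which kidneys came from the same mouse, and the p-values measure the spread between these 12 kidneys.

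Amino acid breakdown removes the amino group and leaves carbon skeletons that can enter the citric acid cycle, mostly inside mitochondria. In the kidney these enzymes are best known from the proximal tubule, the segment that takes up filtered amino acids and that uses glutamine to make ammonia. Several of the genes are known from inborn errors of metabolism, such as maple syrup urine disease (Bckdha, Bckdhb, Dbt), propionic acidaemia (Pcca, Pccb), alkaptonuria (Hgd) and nonketotic hyperglycinaemia (Gldc, Amt).

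Total counts lay between 15367342 and 44793350 per kidney, and a level is given as CPM, the count scaled to the size of the library, with TMM factors between 0.968 and 1.03. A total of 3 counts, the floor used here, is 0.067 to 0.195 CPM and covers counting error only. A change is called where the p-value of the quasi-likelihood test of edgeR, adjusted (Benjamini-Hochberg) over the 11664 genes, was below 0.05. Errors of log2 fold changes are approximate standard errors. They were derived as the absolute log2 fold change divided by the square root of the F statistic of that test. As a check of the tissue, 10 proximal tubule markers summed to 7032 to 7772 CPM in the controls, markers of fat were at 0 in every kidney, adrenal markers summed to at most 1.57 CPM, and of 3 liver markers Apoa1 was at 0 in every kidney and Alb, the defining one, had a mean of 0 CPM in the controls and of at most 0.109 CPM in an ischemic set. The third, Ttr, had means of 18.6, 3.57 and 1.48 CPM in controls, set A and set B, and was called lower in set B (adjusted p = 0.0192; 0.109 for set A). Of 3 blood markers, Hba-a1 was at 0 in every kidney. The haemoglobin gene Hbb-bs (Beta-s) had means of 83.8, 35.4 and 21.4 CPM in controls, set A and set B and was called lower in each set, with log2 fold changes of -1.24 ± 0.27 (adjusted p = 0.00211) and -1.97 ± 0.28 (adjusted p = 2.72e-05), and Alas2 had means of 2.44, 0.218 and 0 CPM and was called lower in set B (adjusted p = 0.0266; 0.311 for set A). The part of blood in the results was not tested. The immune markers summed to between 3.73 and 13.8 CPM, with overlap of the groups in the sum. Of the 4 immune markers tested, Cd3e, a T cell marker, was at 0.694 to 4.73 CPM in the controls and at 0 in each ischemic kidney, and was called lower in each set (adjusted p = 0.0412 for set A and 0.0472 for set B), and the others were not called.

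Most of the 43 enzymes fell after ischemia. In set A, 34 were called lower, 0 higher and 9 were not called, at a median log2 change of -2.03 (range -5.22 to 0.14). In set B, 32 were called lower, 0 higher and 11 were not called, with a median of -2.05 (range -4.59 to 0.47). Among all genes tested, 11.7% were called lower and 10.5% higher in set A, 11.9% were called lower and 10.9% higher in set B, and the median log2 fold change was -0.02 in each set. At an unadjusted p below 0.05, 38 of the 43 enzymes passed in set A, against 31.5% of all genes tested, and 36 in set B, against 32.7%. The sets were compared with the same 4 controls. Leaving out single kidneys ended the call of Hibch and Gstz1 in set A and of Dbt, Acadsb, Pipox, Fah and Dao in set B.

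The mean level of the median enzyme was 24.6% of control for set A and 24.1% for set B, and 36 enzymes (set A) and 35 enzymes (set B) were under 50% of control. In set A, 35 of 43 were lower without overlap between kidneys, against 15.7% of all genes tested (28.2% in either direction). In set B it was also 35, against 15.1% (26.7% in either direction). Each ischemic kidney was shifted. The median over the 43 genes of the log2 ratio to the control mean was -1.96, -1.58, -2.15 and -2.38 in the kidneys of set A and -1.77, -1.67, -2.04 and -2.27 in those of set B, while the controls lay between -0.03 and 0.04.

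**Figure D1:**
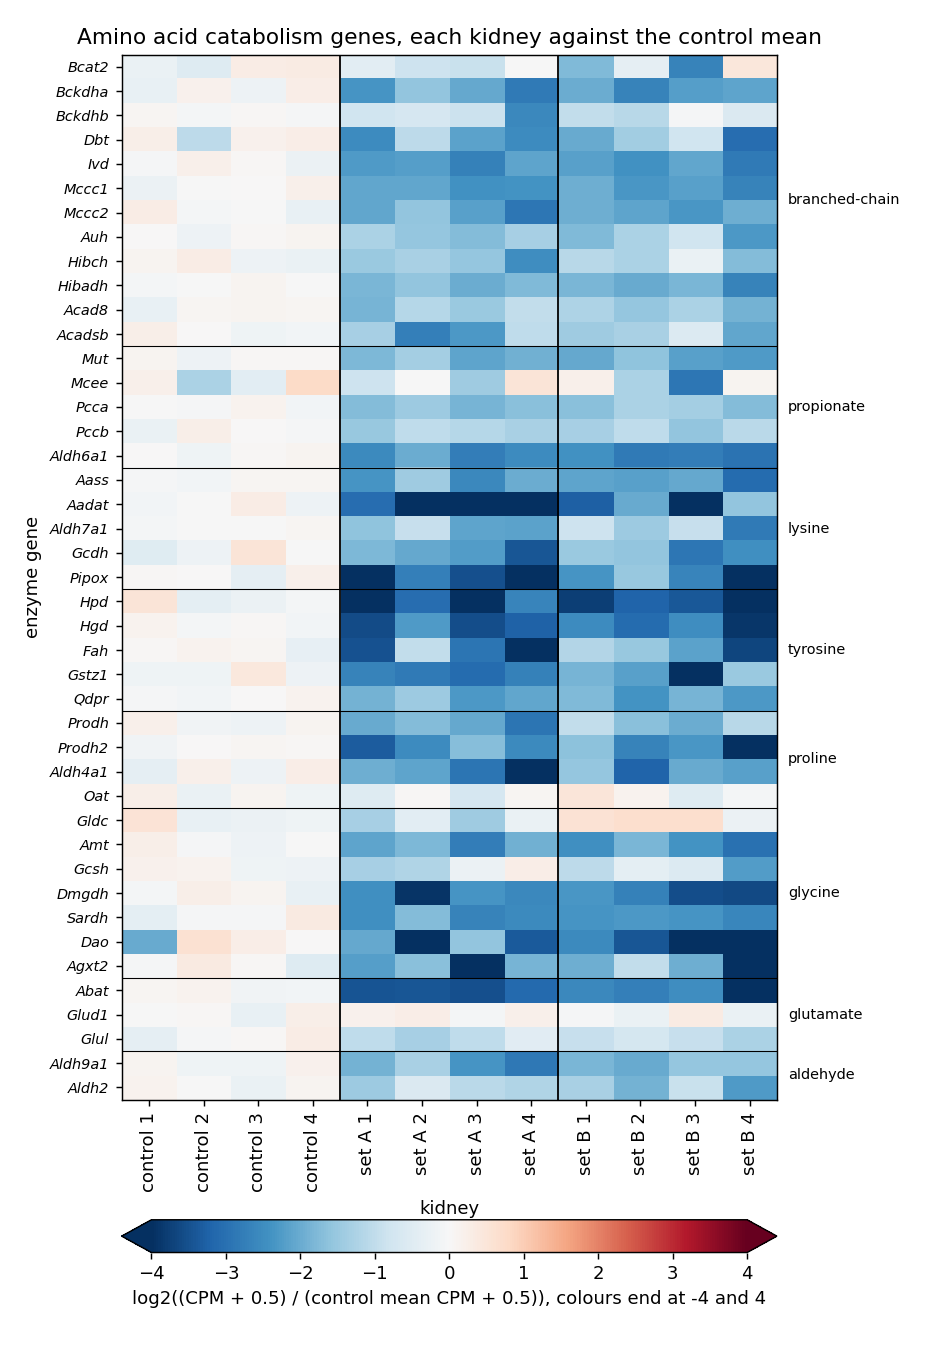
Each row is an enzyme gene, ordered by pathway, and each column a kidney, and the colour is the log2 ratio of CPM + 0.5 to that of the control mean (blue lower, red higher, colours end at -4 and 4). The 8 ischemic kidneys are blue for most genes, with medians from -1.58 to -2.38, the rows of Oat and Glud1 stay pale, and that of Gldc is blue in 2 kidneys of set A and pale or light red in set B.

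The fall in these enzymes ran beside a fall in markers of the proximal tubule. All 10 of those markers were called lower in each set, at a median of -2.89 (set A) and -2.88 (set B) on the log2 scale, and their summed level ran from 733 to 1350 CPM across set A and from 411 to 1412 CPM across set B. The defining markers Slc34a1 and Lrp2 were among them. Of 4 thick limb and distal tubule markers, 2 were called lower in each set (Slc12a1 and Calb1), of 4 collecting duct markers 1 (Slc4a1), and of 4 tested glomerular and endothelial markers 0 (1 at an unadjusted p below 0.05 in set A, 0 in set B). In whole kidney RNA, fewer cells of a type and less RNA per cell cannot be told apart, and the part of the markers' change in the enzymes' change was not tested.

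**Figure D2:**
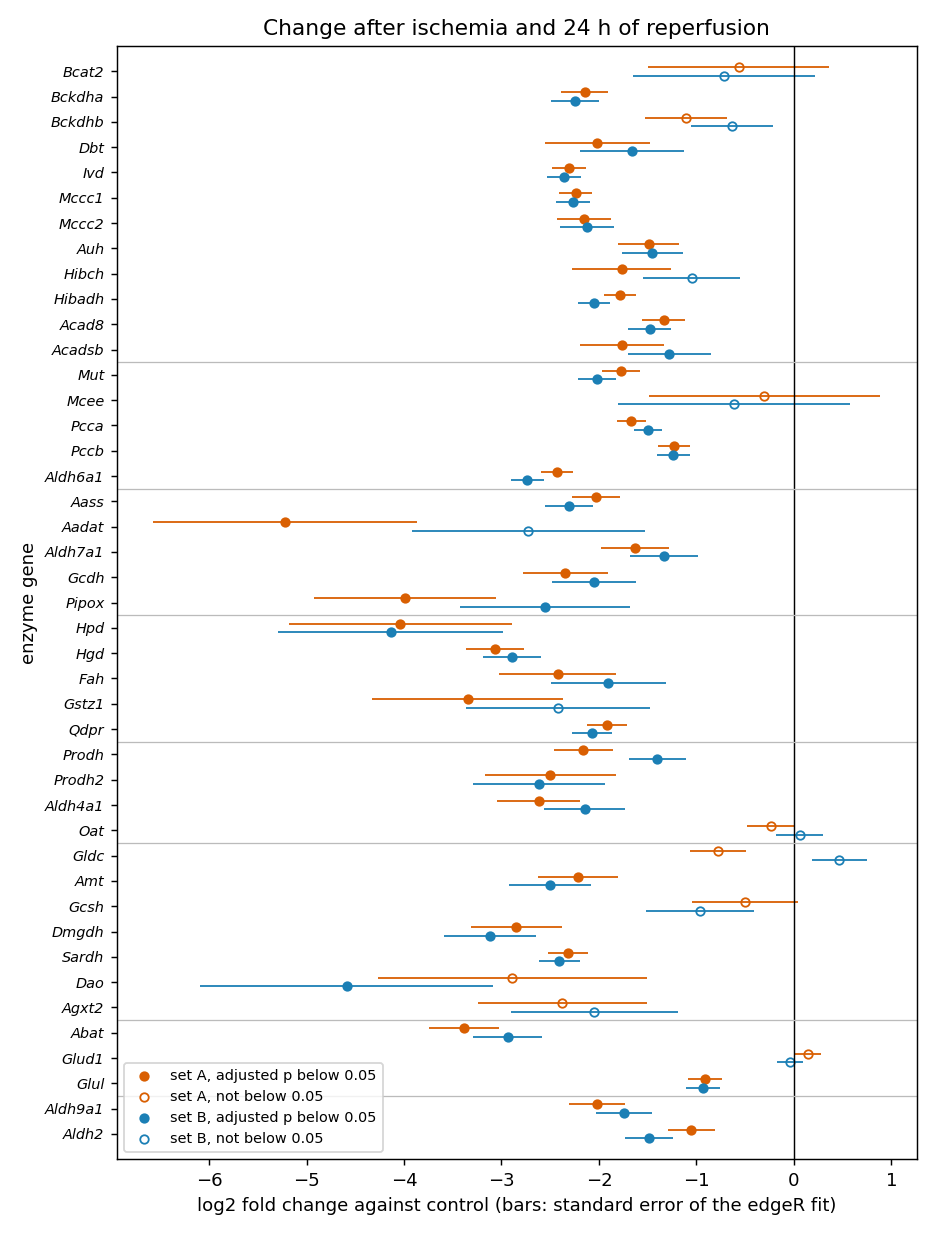
The log2 fold change of each enzyme against control is on the horizontal axis, with set A in orange, set B in blue, bars for the approximate standard error derived from the edgeR test, and filled points for an adjusted p below 0.05. The filled points all lie left of 0, from -5.22 (Aadat) to -0.91 (Glul), and Oat and Glud1 lie between -0.24 and 0.14.

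Promoter sequences were read for the 38 of 43 genes with an entry in the RefSeq table (build GRCm38.p6), from 250 bases before to 50 bases after the start site, 46 windows in all. For Aldh7a1, Dbt, Abat, Aldh2 and Mut no entry was matched in the table used. HNF4 and HNF1 are transcription factors of the proximal tubule. The letters CAAAGTCCA (HNF4 type), read on both strands, were found in 3 of the 38 genes (7.89%) and in 0.555% of all 27025 genes of the table. The 10 letters of the HNF1 type were found in 1 gene (2.63%), against 0.470% of all genes. CAAAGGTCA (HNF4 type), TCAAGGTCA (ERR type) and TGATGNAA (ATF4/CEBP type) were found in 0 of the 38, and in 0.544%, 0.466% and 4.51% of all genes. The stretches that hold these letters are shown 5′ to 3′ on the strand of the gene, the matched letters in capitals, because they are the only matches among the enzymes.
Aadat, chr8:60506042-60506070, + strand, match 72 bases before the RefSeq start site: cctctgtggaTGGACTTTGtcccttctgc
Pipox, chr11:77893839-77893867, - strand, match 15 bases past the start site: ctagtttagcTGGACTTTGcctccctcct
Agxt2, chr15:10358452-10358531, + strand, match 21 and 67 bases before its RefSeq start sites: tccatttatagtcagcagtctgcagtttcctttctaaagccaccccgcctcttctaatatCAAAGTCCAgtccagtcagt
Prodh2, chr7:30493470-30493599, + strand, match 128 bases before the start site: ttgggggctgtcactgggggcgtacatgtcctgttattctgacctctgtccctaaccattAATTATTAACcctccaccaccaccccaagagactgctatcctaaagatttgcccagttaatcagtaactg
In Aadat and Pipox the capitals are the HNF4-type letters of the opposite strand, and in Prodh2 the HNF1-type letters of the opposite strand. The stretches of Aadat and Pipox lie in the first exon, in the 5′ untranslated part, of a GENCODE vM21 transcript, and those of Agxt2 and Prodh2 lie before the gene. A match of letters is a description of the window and not a binding site. The levels of these 4 genes are given with their pathways below.

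The branched-chain enzymes break down leucine, isoleucine and valine. Of the 12, 10 were called lower in set A (median log2 fold change -1.78) and 9 of 12 for set B (median -1.57). Ivd (ENSMUSG00000027332.11, chr2:118861954-118882909, mm10), isovaleryl-CoA dehydrogenase of the leucine route, was at 390.0, 458, 411 and 342 CPM in the 4 controls, at 83.3, 86.5, 61.7 and 91.8 CPM in the kidneys of set A and at 88.1, 73.8, 94.98 and 55.4 CPM in those of set B. Every ischemic kidney lay well below every control, and the log2 fold change was -2.31 ± 0.18 for set A (adjusted p = 9.2e-09) and -2.36 ± 0.18 for set B (adjusted p = 7.26e-09). The carboxylase that follows it has the subunits Mccc1 and Mccc2. Mccc1 was at 224, 263, 271 and 304 CPM in the 4 controls, at 62.7, 61.9, 49.5 and 50.6 CPM in the kidneys of set A and at 68.4, 52.9, 57.9 and 41.1 CPM in those of set B, a log2 fold change of -2.24 ± 0.17 for set A (adjusted p = 9.56e-09) and -2.27 ± 0.17 for set B (adjusted p = 8.55e-09). Mccc2 fell by nearly as much on the log2 scale, with -2.16 ± 0.28 for set A (adjusted p = 7.81e-06) and -2.12 ± 0.28 for set B (adjusted p = 9.71e-06). Auh, the next hydratase of leucine breakdown, changed by -1.49 ± 0.31 for set A (adjusted p = 0.0014) and -1.45 ± 0.31 for set B (adjusted p = 0.00177).

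In the valine and isoleucine routes, Hibadh, 3-hydroxyisobutyrate dehydrogenase, had a level of 45.7 CPM per kb of exon in the controls, the highest among it, Acad8, Acadsb and Hibch. It was at 436, 464, 498 and 462 CPM in the 4 controls, at 130.3, 155, 116 and 137 CPM in the kidneys of set A and at 131, 116, 129 and 72.2 CPM in those of set B, with no overlap between ischemic and control kidneys, and changed by -1.79 ± 0.16 for set A (adjusted p = 1.09e-07) and -2.05 ± 0.17 for set B (adjusted p = 2.1e-08). Acad8, isobutyryl-CoA dehydrogenase, changed by -1.34 ± 0.22 for set A (adjusted p = 0.000131) and -1.48 ± 0.22 for set B (adjusted p = 4.48e-05), and Acadsb, which acts on the isoleucine intermediate, by -1.76 ± 0.43 for set A (adjusted p = 0.00517) and -1.28 ± 0.43 for set B (adjusted p = 0.0369). Hibch, the hydrolase before Hibadh, was at 13.3, 15.2, 10.7 and 10.03 CPM in the 4 controls, at 4.09, 4.66, 3.83 and 1.81 CPM in the kidneys of set A and at 5.39, 4.81, 10.2 and 3.36 CPM in those of set B. Its set A kidneys were all below the controls and 1 set B kidney lay within the range of the controls, and its log2 fold change was -1.77 ± 0.51 for set A (adjusted p = 0.0153) and -1.05 ± 0.50 for set B (adjusted p = 0.15).

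The branched-chain keto acid dehydrogenase, the committed step shared by the 3 amino acids, has 3 of its subunits among the 43 genes, of which 2 were called lower and 1 was not called, a difference between subunits that was not tested. Its E3 subunit Dld, which other complexes share and which is not among the 43, changed by -0.91 ± 0.14 for set A (adjusted p = 5.76e-05) and -0.99 ± 0.14 for set B (adjusted p = 2.47e-05). Bckdha (ENSMUSG00000060376.7, chr7:25629946-25658981, mm10), the E1 alpha subunit, was at 114, 156, 120.1 and 165 CPM in the 4 controls, at 26.8, 45.9, 33.2 and 19.2 CPM in the kidneys of set A and at 34.7, 21.2, 29.7 and 31.5 CPM in those of set B. Its log2 fold change was -2.15 ± 0.24 for set A (adjusted p = 1.66e-06) and -2.24 ± 0.25 for set B (adjusted p = 1.14e-06). Bckdhb, the E1 beta subunit, was at 19.2, 16.8, 18.6 and 17.2 CPM in the 4 controls, at 10.1, 10.99, 9.67 and 2.59 CPM in the kidneys of set A and at 8.86, 7.97, 17.5 and 11.9 CPM in those of set B. Its log2 fold changes of -1.10 ± 0.42 for set A (adjusted p = 0.0691) and -0.64 ± 0.42 for set B (adjusted p = 0.337) did not pass the threshold, and 1 set B kidney was within the control range. Dbt, the E2 subunit, was at 25.1, 9.87, 23.95 and 25.3 CPM in the 4 controls, at 3.24, 9.97, 4.34 and 3.25 CPM in the kidneys of set A and at 4.78, 7.65, 12.04 and 2.09 CPM in those of set B, with control replicate 2 at the level of the highest ischemic kidneys, and changed by -2.02 ± 0.54 for set A (adjusted p = 0.00929) and -1.66 ± 0.53 for set B (adjusted p = 0.0287). Bcat2, the mitochondrial aminotransferase of the first step, was low throughout (2.81 to 5.36 CPM in control kidneys, 2.05 to 4.09 CPM in the kidneys of set A and 0.242 to 5.9 CPM in those of set B), and its log2 fold changes of -0.57 ± 0.93 for set A (adjusted p = 0.784) and -0.72 ± 0.93 for set B (adjusted p = 0.688) did not pass.

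The propionate and methylmalonate steps receive carbon from valine, isoleucine, methionine and threonine. Of the 5 genes, 4 were called lower in each set. Aldh6a1 (ENSMUSG00000021238.11, chr12:84430717-84451004, mm10), methylmalonate-semialdehyde dehydrogenase, had the highest control level of them per kilobase of exon and was at 1009, 881, 1033 and 1074 CPM in the 4 controls, at 169.6, 254, 146 and 175 CPM in the kidneys of set A and at 185, 139, 146 and 129 CPM in those of set B. The highest ischemic kidney was far below the lowest control, and the log2 fold change was -2.43 ± 0.16 for set A (adjusted p = 2.06e-09) and -2.73 ± 0.17 for set B (adjusted p = 5.31e-10). Pcca and Pccb, the subunits of propionyl-CoA carboxylase, had smaller fitted changes. Pcca changed by -1.67 ± 0.15 for set A (adjusted p = 6.08e-08) and -1.50 ± 0.15 for set B (adjusted p = 2.49e-07) and Pccb by -1.23 ± 0.17 for set A (adjusted p = 1.29e-05) and -1.24 ± 0.17 for set B (adjusted p = 1.28e-05), without overlap. Mut, methylmalonyl-CoA mutase, was at 135 to 167 CPM in control kidneys, 36.1 to 60.96 CPM in the kidneys of set A and 32.1 to 51.1 CPM in those of set B and changed by -1.78 ± 0.19 for set A (adjusted p = 1e-06) and -2.02 ± 0.20 for set B (adjusted p = 2.29e-07). Mcee, the epimerase between carboxylase and mutase, had 1.04 to 5.72 CPM in control kidneys, 0.881 to 4.7 CPM in the kidneys of set A and 0 to 3.77 CPM in those of set B, and its log2 fold changes of -0.30 ± 1.19 for set A (adjusted p = 0.923) and -0.61 ± 1.19 for set B (adjusted p = 0.813) were smaller than their errors.

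All 5 lysine enzymes were called lower in set A and 4 of them for set B, and in each set the 5 had no overlap with the controls. Aass, the bifunctional first enzyme of the saccharopine route, was at 193, 184, 208 and 210.2 CPM in the 4 controls, at 38.01, 73.9, 33.1 and 50.2 CPM in the kidneys of set A and at 46, 43.6, 47.9 and 22.8 CPM in those of set B, and changed by -2.03 ± 0.25 for set A (adjusted p = 3.49e-06) and -2.31 ± 0.25 for set B (adjusted p = 8.66e-07). Aldh7a1, the semialdehyde dehydrogenase, changed by -1.63 ± 0.35 for set A (adjusted p = 0.00172) and -1.33 ± 0.35 for set B (adjusted p = 0.00809), and Gcdh, glutaryl-CoA dehydrogenase at the end of the route, by -2.35 ± 0.44 for set A (adjusted p = 0.000425) and -2.05 ± 0.43 for set B (adjusted p = 0.00138). Aadat (ENSMUSG00000057228.6, chr8:60505932-60545677, mm10), aminoadipate aminotransferase, whose promoter is shown above, was at 13.5, 14.6, 18.3 and 12.7 CPM in the 4 controls, at 1.36, 0, 0 and 0.181 CPM in the kidneys of set A and at 1.08, 3.29, 0 and 4.63 CPM in those of set B. In set A it was at 0 in 2 kidneys, the deepest fall of the 43 genes there, while in set B 3 kidneys kept 1 CPM or more. Its log2 fold change was -5.22 ± 1.35 for set A (adjusted p = 0.00751) and -2.72 ± 1.20 for set B (adjusted p = 0.117). Pipox (ENSMUSG00000017453.4, chr11:77880615-77894096, mm10), a peroxisomal oxidase of pipecolic acid and sarcosine, was at 45.2, 44.02, 34.1 and 50.3 CPM in the 4 controls, at 1.27, 6.12, 3.35 and 0.0602 CPM in the kidneys of set A and at 8.12, 14.9, 6.53 and 0 CPM in those of set B. Single kidneys of each set were close to or at 0, and the log2 fold change was -3.99 ± 0.93 for set A (adjusted p = 0.00331) and -2.56 ± 0.87 for set B (adjusted p = 0.0401).

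The phenylalanine and tyrosine enzymes had the deepest median fall of the groups with 3 or more genes in set A, -3.07, with 5 of 5 called, and a median of -2.42 in set B, with 4 of 5 called. Hpd (ENSMUSG00000029445.13, chr5:123171807-123182727, mm10), 4-hydroxyphenylpyruvate dioxygenase, was at 37.8, 19.8, 22.1 and 24.5 CPM in the 4 controls, at 0.0317, 2.7, 0 and 3.79 CPM in the kidneys of set A and at 1.45, 2.4, 2.03 and 0 CPM in those of set B. The ischemic kidneys stayed under 4 CPM, and the log2 fold change was -4.04 ± 1.14 for set A (adjusted p = 0.0139) and -4.14 ± 1.15 for set B (adjusted p = 0.0121). Hgd (ENSMUSG00000022821.13, chr16:37580153-37632020, mm10), homogentisate dioxygenase, the next enzyme, was at 421, 360.5, 397 and 353 CPM in the 4 controls, at 31.7, 78.6, 32.5 and 40.3 CPM in the kidneys of set A and at 66.8, 44.97, 68.3 and 25.3 CPM in those of set B. It fell to 11.96% of the control mean for set A and 13.4% for set B, with a log2 fold change of -3.07 ± 0.30 for set A (adjusted p = 2.48e-07) and -2.90 ± 0.30 for set B (adjusted p = 4.74e-07). Gstz1, maleylacetoacetate isomerase, was at 8.63, 8.68, 13.3 and 8.46 CPM in the 4 controls, at 1.11, 0.941, 0.705 and 1.08 CPM in the kidneys of set A and at 2.36, 1.77, 0 and 3.17 CPM in those of set B. Every ischemic kidney was below the controls, but at these low counts the log2 fold change was -3.35 ± 0.98 for set A (adjusted p = 0.0174) and -2.42 ± 0.94 for set B (adjusted p = 0.0743). Fah, fumarylacetoacetase, the last enzyme, was at 42.5, 45, 43.3 and 32.1 CPM in the 4 controls, at 3.2, 20.2, 4.98 and 1.93 CPM in the kidneys of set A and at 17.8, 13.9, 8.94 and 2.73 CPM in those of set B. Replicate 2 of set A kept a level several times that of the other 3, and the log2 fold change was -2.42 ± 0.60 for set A (adjusted p = 0.00534) and -1.91 ± 0.59 for set B (adjusted p = 0.0234). Qdpr, which regenerates the cofactor tetrahydrobiopterin, changed by -1.92 ± 0.21 for set A (adjusted p = 8.62e-07) and -2.07 ± 0.21 for set B (adjusted p = 3.56e-07).

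In the proline and ornithine group, 3 of 4 genes were called lower in each set, and Oat was the exception. Prodh, proline dehydrogenase, was at 57.4, 44.4, 42.8 and 53.2 CPM in the 4 controls, at 11.96, 14.5, 11.7 and 6.02 CPM in the kidneys of set A and at 24.7, 15.2, 12.2 and 22.8 CPM in those of set B, and changed by -2.16 ± 0.30 for set A (adjusted p = 2.16e-05) and -1.40 ± 0.30 for set B (adjusted p = 0.00146). Prodh2, which acts on hydroxyproline and whose promoter is shown above, was at 31.3, 34.8, 36.3 and 35.5 CPM in the 4 controls, at 3.01, 5.56, 10.2 and 5.54 CPM in the kidneys of set A and at 10.8, 4.93, 6.48 and 0.0635 CPM in those of set B, and changed by -2.50 ± 0.67 for set A (adjusted p = 0.00957) and -2.62 ± 0.67 for set B (adjusted p = 0.00715). Aldh4a1, which oxidises the product of both, changed by -2.62 ± 0.43 for set A (adjusted p = 0.000117) and -2.15 ± 0.42 for set B (adjusted p = 0.000707). Oat (ENSMUSG00000030934.9, chr7:132557478-132576398, mm10), ornithine aminotransferase, which reaches the same intermediate from ornithine, was at 55.3, 39.1, 50.7 and 41.2 CPM in the 4 controls, at 32.2, 47.96, 29.1 and 48.9 CPM in the kidneys of set A and at 66.04, 50.8, 32.8 and 44.2 CPM in those of set B. Its groups overlapped throughout, and its log2 fold changes of -0.24 ± 0.24 for set A (adjusted p = 0.599) and 0.06 ± 0.24 for set B (adjusted p = 0.924) were about the size of their standard errors or smaller.

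The glycine cleavage system needs the P protein (Gldc), the T protein (Amt) and the H protein (Gcsh), of which Amt was called lower in each set and the other two in neither. Amt was at 26.9, 22.1, 19.5 and 22.4 CPM in the 4 controls, at 4.85, 6.16, 2.93 and 5.6 CPM in the kidneys of set A and at 3.7, 6.01, 3.92 and 2.41 CPM in those of set B, without overlap, and changed by -2.22 ± 0.41 for set A (adjusted p = 0.000416) and -2.50 ± 0.42 for set B (adjusted p = 0.000141). Gldc (ENSMUSG00000024827.10, chr19:30098447-30175429, mm10) was at 76.3, 42.4, 44.9 and 46.8 CPM in the 4 controls, at 20.7, 39.2, 19.4 and 43.3 CPM in the kidneys of set A and at 77.96, 84.5, 83.7 and 44.2 CPM in those of set B. In set A 3 kidneys were below every control and in set B 3 were above every control, with log2 fold changes of -0.78 ± 0.29 for set A (adjusted p = 0.0575) and 0.47 ± 0.28 for set B (adjusted p = 0.29). Gcsh was at 10.98, 10.7, 8.52 and 8.41 CPM in the 4 controls, at 3.52, 3.89, 8.1 and 11.7 CPM in the kidneys of set A and at 4.41, 7.27, 6.43 and 1.65 CPM in those of set B, and its log2 fold changes of -0.50 ± 0.55 for set A (adjusted p = 0.635) and -0.97 ± 0.55 for set B (adjusted p = 0.251) did not pass.

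Of the other genes of this group, Dmgdh and Sardh, the mitochondrial dehydrogenases that remove methyl groups from dimethylglycine and sarcosine, fell in both sets. Dmgdh (ENSMUSG00000042102.7, chr13:93674433-93752833, mm10) was at 27.3, 33.8, 31.2 and 23.4 CPM in the 4 controls, at 4.92, 1.45, 5.24 and 4.39 CPM in the kidneys of set A and at 5.35, 3.98, 2.03 and 1.9 CPM in those of set B, and changed by -2.85 ± 0.47 for set A (adjusted p = 0.000118) and -3.12 ± 0.47 for set B (adjusted p = 5.2e-05). Sardh was at 213, 274, 272 and 363 CPM in the 4 controls, at 50.7, 83.1, 43.4 and 47.3 CPM in the kidneys of set A and at 54.4, 57.04, 54.4 and 45.7 CPM in those of set B, and changed by -2.32 ± 0.21 for set A (adjusted p = 6.5e-08) and -2.41 ± 0.21 for set B (adjusted p = 4.56e-08). Dao, D-amino acid oxidase, was at 1.68, 13.02, 10.1 and 8.41 CPM in the 4 controls, at 1.62, 0, 2.44 and 0.361 CPM in the kidneys of set A and at 1.01, 0.316, 0 and 0 CPM in those of set B. Control replicate 1 was as low as the kidneys of set A, all of set B were below every control, and the log2 fold change was -2.89 ± 1.38 for set A (adjusted p = 0.158) and -4.59 ± 1.50 for set B (adjusted p = 0.0325). Agxt2, a mitochondrial aminotransferase that also uses dimethylarginine and whose promoter is shown above, was at 16.9, 22.4, 17.9 and 11.99 CPM in the 4 controls, at 3.36, 5.09, 0.462 and 4.46 CPM in the kidneys of set A and at 4.11, 8.54, 4.06 and 0 CPM in those of set B. No ischemic kidney reached a control, yet the log2 fold changes of -2.38 ± 0.87 for set A (adjusted p = 0.0561) and -2.05 ± 0.86 for set B (adjusted p = 0.0975) did not pass the threshold.

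Of the 3 genes of glutamate, glutamine and GABA, Abat and Glul were called lower in each set and Glud1 in neither. Abat (ENSMUSG00000057880.12, chr16:8513429-8621568, mm10), the GABA transaminase, was at 338, 349, 290.2 and 297 CPM in the 4 controls, at 28.8, 29.2, 27.1 and 36.7 CPM in the kidneys of set A and at 52.9, 47.6, 56.9 and 8.82 CPM in those of set B. It fell to 9.56% of the control mean for set A and 13.05% for set B, with replicate 4 of set B far below the other 3, and the log2 fold change was -3.39 ± 0.36 for set A (adjusted p = 6.96e-07) and -2.94 ± 0.35 for set B (adjusted p = 3.43e-06). Glul (ENSMUSG00000026473.15, chr1:153899944-153909723, mm10), glutamine synthetase, was at 661, 816, 883 and 1044 CPM in the 4 controls, at 418, 342, 421 and 626 CPM in the kidneys of set A and at 453, 526, 448 and 354 CPM in those of set B. It was lower in every ischemic kidney than in any control, with a log2 fold change of -0.91 ± 0.17 for set A (adjusted p = 0.000559) and -0.94 ± 0.17 for set B (adjusted p = 0.000459). Glud1 (ENSMUSG00000021794.16, chr14:34310727-34345265, mm10), glutamate dehydrogenase, which frees ammonia from glutamate, was at 3895, 4077, 3205 and 4610.1 CPM in the 4 controls, at 4468, 4733, 3723 and 4495 CPM in the kidneys of set A and at 3823, 3269, 4930.2 and 3279 CPM in those of set B. The groups overlapped, and the log2 fold changes were 0.14 ± 0.13 for set A (adjusted p = 0.562) and -0.05 ± 0.13 for set B (adjusted p = 0.889). From these standard errors, the log2 fold change of Glud1 is measured more narrowly than that of any other of the 43 genes.

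**Figure D3:**
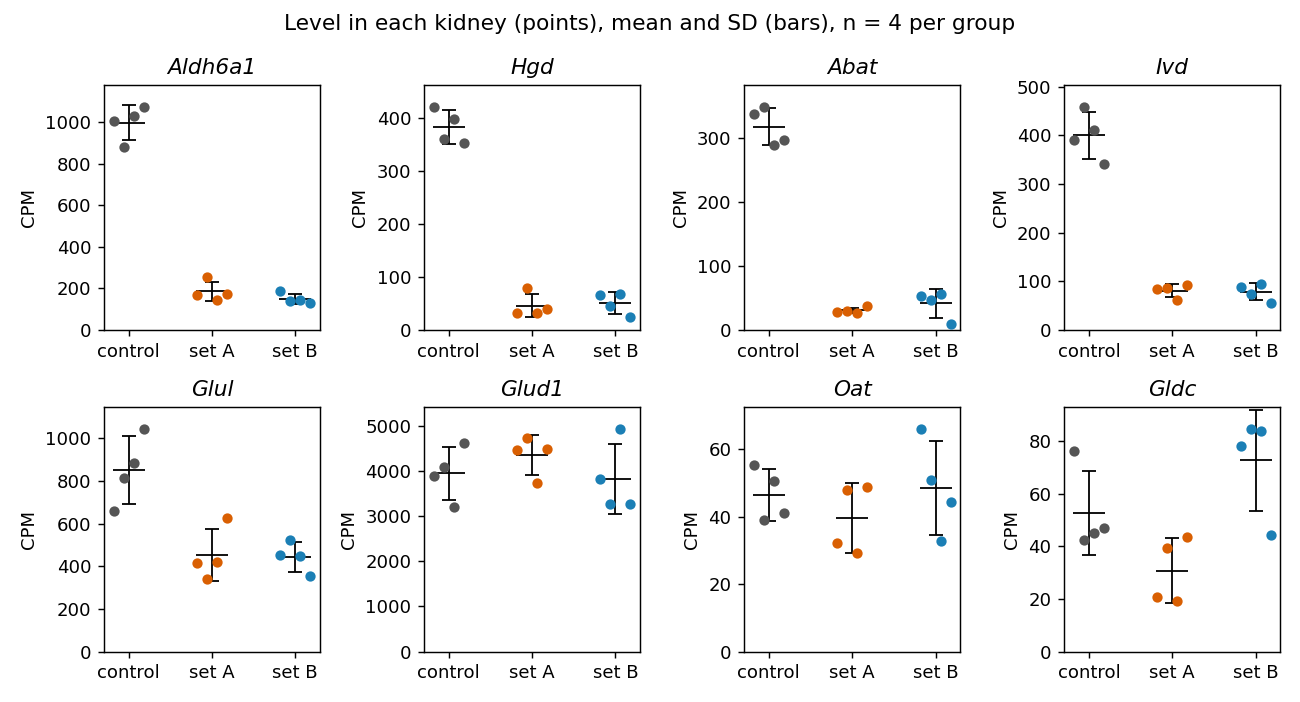
The level in CPM (vertical axis, from 0) is plotted for each kidney as a point, by group, with the mean and SD as bars (n = 4), for 8 enzymes. Aldh6a1, Hgd, Abat and Ivd lie far below the controls in each ischemic kidney, Glul lies at 53.1% and 52.3% of the control mean in sets A and B, and the groups of Glud1 and Oat overlap, as do those of Gldc with the controls.

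Aldh9a1 and Aldh2, aldehyde dehydrogenases with broader substrates, were both called lower. Aldh9a1, which oxidises the aldehydes from trimethyl-lysine and from polyamines, was at 60.4 to 77.1 CPM in control kidneys, 8.91 to 27.3 CPM in the kidneys of set A and 16.6 to 23.2 CPM in those of set B, and changed by -2.02 ± 0.29 for set A (adjusted p = 2.49e-05) and -1.74 ± 0.29 for set B (adjusted p = 0.000117). Aldh2, the mitochondrial acetaldehyde dehydrogenase, was at 169.8 to 225 CPM in control kidneys, 73.9 to 136 CPM in the kidneys of set A and 42.3 to 112 CPM in those of set B, and changed by -1.05 ± 0.24 for set A (adjusted p = 0.00304) and -1.49 ± 0.25 for set B (adjusted p = 0.000128).

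Levels in the control kidneys, given per kilobase of exon in GENCODE vM21 so that genes can be compared, spanned from 1.07 CPM per kb for Bcat2 to 937 for Glud1. Behind Glud1 came Glul (256), Aldh6a1 (173), Hgd (146) and Qdpr (78.7), and above Bcat2 came Gstz1 (1.92), Hibch (2.03), Dao (2.81) and Acadsb (3.31). The level of a gene per kilobase in the controls had a Spearman rho of -0.04 with the mean log2 fold change of the sets over the 43 genes, which share the same 12 libraries, and of -0.17 over the 39 genes without Glud1, Glul, Oat and Gldc. Those genes were left out with their values known, while Mcee, with a smaller fitted fall than Glul, was kept. The control level enters both sides of this correlation. The number of calls followed the counts. Of 16 genes with a control mean of 100 CPM or more, 15 were called lower for set A and 15 for set B, of 22 genes between 10 and 100 CPM, 18 and 16, and of 5 genes under 10 CPM, 1 and 1.

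The spread between kidneys, relative to the mean, was larger in the ischemic sets. In the 16 genes of 100 CPM or more, the median coefficient of variation between kidneys was 10.7% for controls, 24.4% for set A and 21.4% for set B. In the 22 genes from 10 to 100 CPM it was 15.7%, 44.9% and 46.5%, where the counts after ischemia were also lower. Summed over the 43 genes without Glud1, the level ran from 5910 to 6521 CPM among controls, from 1517 to 2005 CPM among set A and from 1328 to 1924 CPM among set B.

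Set B against set A asks whether the state of the mouse during ischemia went with a difference in these genes, under the doubt about the labels. None of the 43 was called with edgeR's quasi-likelihood test, 2 had an unadjusted p below 0.05 (Gldc and Prodh), DESeq2 called 1 (Gldc) and limma-trend 0. Over all genes tested, 0.00857% were called and 5.03% had an unadjusted p below 0.05. The median log2 fold change of the 43 genes was -0.01, with a range of -1.70 (Dao) to 2.50 (Aadat), both at low counts.

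Gldc was higher in set B, with a log2 fold change of 1.25 ± 0.29 (adjusted p = 0.462 by edgeR's quasi-likelihood test, 0.0302 by DESeq2). It was the only one of the 43 whose ischemic sets did not overlap, against 2.61% of all genes tested (1.29% with set B higher), with the lowest set B kidney at 44.2 CPM and the highest set A kidney at 43.3 CPM. Across the other alternatives its adjusted p lay between 0.0565 and 1. Prodh was also higher in set B, by 0.76 ± 0.29, with an adjusted p of 0.936 and overlapping sets. Abat was higher in set B by 0.45 ± 0.33, and its difference passed only without replicate 4 of set B (0.79, adjusted p = 0.0469). For genes measured with small error the difference between the sets was bounded closely, as for Ivd (-0.05 ± 0.17), Mccc1 (-0.03 ± 0.16), Pcca (0.17 ± 0.14) and Glud1 (-0.19 ± 0.13). For Aadat (2.50 ± 1.22), Pipox (1.44 ± 0.86) and Dao (-1.70 ± 1.35) the error was wide, and the values do not settle a direction.

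Ratios of partner genes were taken within each kidney, and are given as log2 ratios of CPM + 0.5, which for low genes depend on the added constant, with no test, since the pairs were chosen after the values were seen. The ratio of Mccc1 to Mccc2 was 2.21 ± 0.42 (SD, n = 4) for controls, 2.15 ± 0.43 for set A and 2.01 ± 0.37 for set B, within its spread. The ratio of Pcca to Pccb moved by -0.44 for set A and -0.26 for set B, against a control SD of 0.24, and its groups overlapped. The ratio of Bckdha to Bckdhb was 2.90 ± 0.35 in the controls, 1.95 ± 0.55 in set A, with overlap, and 1.35 ± 0.48 in set B, without overlap.

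Ratios were also taken between genes of one system and of opposing or converging steps. The ratio of Gldc to Amt was 1.16 ± 0.24 for controls, 2.49 ± 0.36 for set A and 4.03 ± 0.26 for set B, and no kidney of a set overlapped with the controls. The ratio of Prodh to Oat moved by -1.91 for set A and -1.45 for set B, and that of Glul to Glud1 by -1.08 and -0.88. The ratio of Bckdha to Bckdk, the kinase that switches the dehydrogenase off, was -0.77 ± 0.14 for controls, -2.24 ± 0.52 for set A and -2.40 ± 0.28 for set B.

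**Figure D4:**
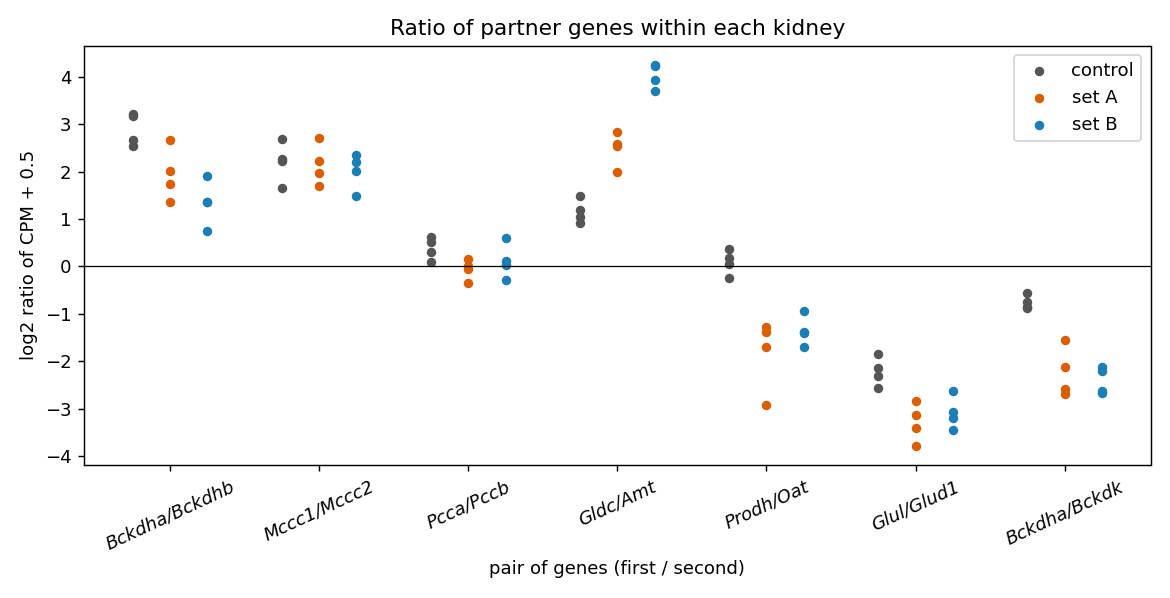
The log2 ratio of CPM + 0.5 between the genes of a pair (vertical axis) is plotted for each kidney as a point, with controls in grey, set A in orange and set B in blue. The pairs Mccc1/Mccc2 and Pcca/Pccb overlap between groups, and Gldc/Amt has means of 1.16, 2.49 and 4.03 for controls, set A and set B.

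A further 60 enzymes of amino acid metabolism, listed by pathway but with earlier results of these data known, were read from the same fit, of which 54 passed the filter. In set A, 29 were called lower, 2 higher and 23 were not called, at a median log2 change of -1.46. In set B, 32 were called lower, 2 higher and 20 were not called, with a median of -1.36. Among all genes tested, 11.7% were called lower and 10.5% higher in set A, and 11.9% and 10.9% in set B. None was called between the sets with edgeR's quasi-likelihood test. Of the 54, 9 had an unadjusted p below 0.05 in that test, against 5.03% of all genes tested. DESeq2 called 2 (Aspg and Cbs) and limma-trend 0. By pathway, 11 of 14 branched-chain and propionate genes were called lower in each set, and, in sets A and B, 4 and 5 of 6 genes of the lysine and tryptophan end, 5 and 6 of 8 of glycine and serine, 5 and 5 of 10 of methionine and cysteine, 1 and 2 of 3 of histidine, 1 and 1 of 3 of phenylalanine and tyrosine, 2 and 1 of 5 of proline and hydroxyproline, 0 and 1 of 4 of glutamine and asparagine and 0 and 0 of 1 of D-amino acids.

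Of the enzymes called in both sets, the largest falls by the mean log2 fold change of the sets were in Cbs, Uroc1 and Bhmt2. Cbs, cystathionine beta-synthase of the methionine route, was at 58.2 to 70.9 CPM in control kidneys, 1.75 to 4.35 CPM in the kidneys of set A and 6.54 to 9.43 CPM in those of set B, and changed by -4.24 ± 0.31 for set A (adjusted p = 5.92e-09) and -3.07 ± 0.29 for set B (adjusted p = 1.83e-07). Uroc1, urocanate hydratase of histidine breakdown, was at 34.2 to 56.6 CPM in control kidneys, 3.55 to 5.95 CPM in the kidneys of set A and 0.379 to 6.06 CPM in those of set B, and changed by -3.19 ± 0.52 for set A (adjusted p = 0.000111) and -3.79 ± 0.53 for set B (adjusted p = 2.32e-05). Bhmt2 (ENSMUSG00000042118.7, chr13:93655720-93674302, mm10), a homocysteine methyltransferase, was at 202, 273, 254 and 253 CPM in the 4 controls, at 35.4, 35.3, 27.2 and 25.8 CPM in the kidneys of set A and at 26.6, 18.1, 26.1 and 13.5 CPM in those of set B. Every ischemic kidney was far below the controls, with a log2 fold change of -2.99 ± 0.21 for set A (adjusted p = 4.46e-09) and -3.54 ± 0.22 for set B (adjusted p = 6.99e-10).

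The genes called higher in each set were Asns and Aldh18a1. Asns, asparagine synthetase, was at 3.07, 0.572, 1.35 and 3.03 CPM in the 4 controls, at 21.1, 22.7, 9.58 and 13.2 CPM in the kidneys of set A and at 28.3, 26.2, 10.2 and 11.5 CPM in those of set B, and changed by 3.06 ± 0.54 for set A (adjusted p = 0.000276) and 3.25 ± 0.55 for set B (adjusted p = 0.000157). Aldh18a1, which makes the precursor of proline from glutamate, was at 2.49, 0, 0 and 1.54 CPM in the 4 controls, at 8.15, 10.9, 12.9 and 4.21 CPM in the kidneys of set A and at 5.12, 12.1, 9.43 and 9.33 CPM in those of set B, and changed by 3.17 ± 1.06 for set A (adjusted p = 0.0367) and 3.16 ± 1.06 for set B (adjusted p = 0.037), calls that were lost without several single kidneys. Asns and Aldh18a1 build amino acids and do not break them down. In the methionine, glutamine, glycine and histidine groups some genes were at or near 0 after ischemia, where the fitted fold change depends on the prior count.

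**Figure D5:**
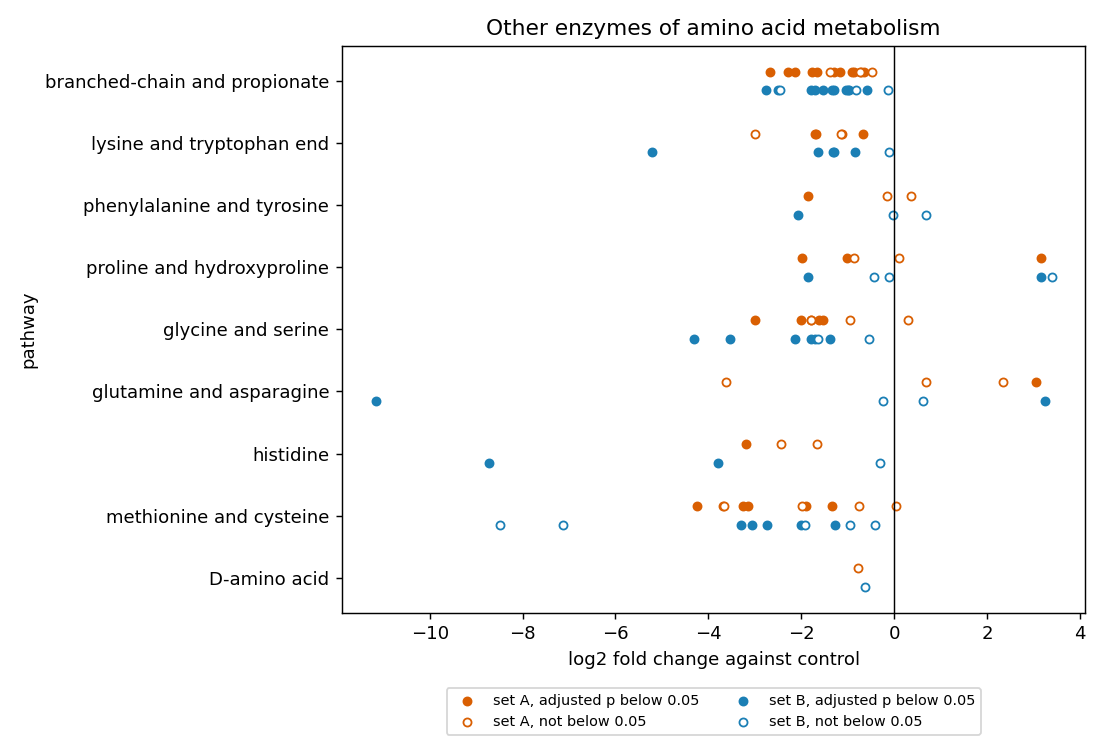
The log2 fold change against control (horizontal axis) of the 54 other enzymes is plotted by pathway, 1 point per gene and set, filled where the adjusted p was below 0.05 (set A orange, set B blue). Most points lie left of 0, with medians of -1.46 and -1.36, the filled points right of 0 are Asns and Aldh18a1, and the 4 points beyond -7 are genes at 0 or 1 counts in each set B kidney, whose fitted value is no bound.

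Exons of some of the 43 genes overlap those of a gene on the other strand in GENCODE vM21. Among protein-coding partners, these are Bckdha with B3gnt8 (488 bases), Mut with Cenpq (95), Pcca with Ggact (241), Aldh6a1 with Bbof1 (817), Aldh7a1 with Phax (193), Gstz1 with Pomt2 (338) and Glul with Teddm2 (116). The libraries were stranded, the strand setting of the counting is not given in the sources used here, and reads of these stretches are uncertain. On the same strand, Aldh4a1 overlaps with Gm21969 (197 bases) and Agxt2 with Gm21973 (89 bases), both protein-coding. Hibadh also overlaps on its strand with the snoRNA gene Gm24355 (122 bases), and Glul with the miRNA gene Mir8114 (93 bases). In these stretches strand cannot separate the reads.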

How the data were processed

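RNA of 12 mouse kidneys (4 controls, 4 in each ischemic set) was sequenced as stranded mRNA libraries with single reads. Per the labels and the methods, the authors used STAR for mapping to mm10 and HTSeq for counting. The deposited values are raw counts of 23420 genes, without normalization. Tool versions, annotation release and strand setting are not given in the sources used here. Of these genes, 14213 had a count.

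Counts were fitted in edgeR 4.0.16 (R 4.3.3) with its default low-count filter (minimum count 10, minimum total 15), TMM and 1 coefficient per group over all 12 kidneys, which left 11664 genes. Two-sided quasi-likelihood tests were adjusted by Benjamini and Hochberg (threshold 0.05). The common biological coefficient of variation was 0.762. Totals ran from 15367342 to 44793350, which limits low genes most. The fit was also run on counts simulated with known changes in set A, and the outcome is not given here.

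The 43 members, the other lists and the tests were chosen with earlier results of these data known. All members may be named. Values in every kidney are given at least for the 5 largest falls and rises called in each set and for calls in 1 set, and of the other enzymes those called in both sets with the 3 largest falls and rises, by mean log2 fold change of the sets, are named. 2 enzymes of that list are not reported here. Alternatives were RLE size factors, DESeq2 1.42.0, limma-trend (limma 3.58.1), other count filters, only the groups compared, a replicate block and leaving out each kidney. Promoters came from RefSeq, gene positions from GENCODE vM21. Tables were handled in pandas 2.3.3 and NumPy 2.4.6 (Python 3.11.15, SciPy 1.17.1), and plots drawn in matplotlib 3.10.9. The authors' own comparisons were not used.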

Additional observations from a re-analysis of the deposited data

Results flagged for a closer look

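In 10 of 129 groups of 4 kidneys, 1 kidney lay apart from the other 3 by more than Dixon's 95% critical value. Chance gives about 1 in 20 such groups. In the controls, Dbt was lowest in replicate 2 (9.87 CPM, others 24.0 to 25.3), Acad8 lowest in replicate 1 (73.7 CPM, others 95.1 to 98.1), Gstz1 highest in replicate 3 (13.3 CPM, others 8.46 to 8.68) and Gldc highest in replicate 1 (76.3 CPM, others 42.4 to 46.8). In set A, Bckdhb was lowest in replicate 4 (2.59 CPM, others at 9.67 CPM or more), Aadat highest in replicate 1 (1.36 CPM, others 0 to 0.181), and Dbt and Fah highest in replicate 2 (9.97 CPM, others 3.24 to 4.34, and 20.2 CPM, others 1.93 to 4.98). In set B, Aass (22.8 CPM, others 43.6 to 47.9) and Gldc (44.2 CPM, others 78.0 to 84.5) were lowest in replicate 4.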

How the results depend on the processing

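Across the alternatives, 33 to 36 of the 43 enzymes were called for set A and 28 to 35 for set B. Of the calls, 32 of 34 in set A and 27 of 32 in set B were kept under every alternative. In set A, Hibch was lost without control replicate 2 (adjusted p = 0.0616) and Gstz1 without control replicate 3 or set A replicate 3 (0.0601 and 0.0512). In set B, Dbt was lost without control replicates 1, 3 or 4 or set B replicates 1 or 4 (0.0589 to 0.0780), Acadsb under the replicate block (0.0617) and without any single kidney of the controls or set B replicates 1, 2 or 4 (0.0530 to 0.0947), Pipox with DESeq2 (0.135) and without any single control or set B replicates 1 or 3 (0.0547 to 0.0844), Fah without control replicate 2 or set B replicate 3 (0.0517 and 0.0591), and Dao without control replicates 2, 3 or 4 or set B replicates 2 or 3 (0.0580 to 0.103). Gained calls were Gldc in set A without set A replicate 2 (0.0425) or 4 (0.0213) or set B replicate 4 (0.0293), with limma-trend (0.0382) and with no filter (0.0260), Agxt2 in set A without set B replicate 4 (0.00359), with no filter (0.0269), with only the groups compared (0.00578) and with DESeq2 (0.0312), and, with limma-trend, Bckdhb in set A (0.0414) and Aadat (0.0312), Gstz1 (0.0242) and Agxt2 (0.0393) in set B. Aadat in set B was also called with only the groups compared (0.0409) and Gstz1 in set B with DESeq2 (0.0173). Set B against set A gave 1 call with DESeq2 (Gldc), and 0 to 1 when a kidney was left out, the 1 being Abat without set B replicate 4 (log2 fold change 0.79, adjusted p = 0.0469). Among the other enzymes DESeq2 called 2 (Aspg and Cbs), and the rise of Aldh18a1 was lost with only the groups compared (adjusted p = 0.0653 and 0.103, set A and set B), under the block (0.0616 and 0.0587) and without control replicates 3 or 4, set A replicates 1, 2 or 3 or set B replicate 2 (each set), and, for set B, without control replicate 2 or set B replicate 3 (0.0503 to 0.0979). The sign turned only in genes that were not called: leaving out a kidney moved Mcee in set A between -0.78 and 0.15, Oat in set B between -0.15 and 0.19 and Glud1 in set B between -0.21 and 0.030. Same-numbered kidneys did not deviate together over the genes tested (correlations -0.055 to 0.045). That gave no sign of pairing by number, but it cannot exclude a shared mouse or batch. The fit with the replicate block called 34 enzymes in set A, 31 in set B and 0 between the sets. With a pseudocount of 2 CPM, added after seeing the data, 2 of 14 partner ratios moved by more than the control spread, those of Gldc to Amt, with shifts of 1.08 (set A) and 2.51 (set B), against 1.33 and 2.87 at 0.5 CPM. Causes of these shifts were not tested. Genes under 10 CPM in the controls are limited by depth.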
